A study of Mus musculus with 5 samples.

Results

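Toll-like receptors are a family of membrane proteins with which macrophages sense microbes and material from damaged cells. An outer region of leucine-rich repeats binds the ligand, and an inner TIR domain recruits adaptors: MyD88 for nearly all of the receptors, TRIF (Ticam1) for Tlr3 and Tlr4. One part of the family sits on the cell surface and reads lipoproteins, lipopolysaccharide or flagellin; the other part sits in endosomes and reads nucleic acids. Here 10 mouse receptors were followed, 5 at the surface (Tlr1, Tlr2, Tlr4, Tlr5 and Tlr6) and 5 in endosomes (Tlr3, Tlr7, Tlr8, Tlr9 and Tlr13). They were found by gene symbol in the array annotation, as 16 of 45101 probe sets, none of which carried a second symbol, and all 16 passed the filter on low signals.

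The cells were CD11b+ cells sorted by FACS on day 8 out of subcutaneous Matrigel plugs in adult Balb/c SCID mice (7 to 12 weeks old), all of which carried a transgenic T-cell receptor against the idiotype of the MOPC315 myeloma, and plugs held myeloma cells in both groups. Tumoricidal macrophages (3 arrays, labelled as biological replicates) came from plugs with MOPC315 cells, whose antigen that receptor sees. Control macrophages (2 arrays) came from plugs with an antigen-loss variant of MOPC315. The labels do not say whether an array holds RNA of 1 mouse or of a pool. CD11b is also carried by other myeloid cells and by natural killer cells, and the RNA is of the whole sort, so that fewer cells of a type and less RNA per cell cannot be told apart.

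Values are signals in array units after each array was scaled to a common median, and log2 differences are tumoricidal minus control, from limma over all probe sets. Deposited array medians were 15.4 to 18.7 in tumoricidal and 18 and 22.6 in control arrays, so control replicate 1 was multiplied by the lowest factor, 0.796, and tumoricidal replicate 3 by the highest, 1.17. That choice moves every small difference: the median log2 difference of all probe sets was 0.086 with this scaling, -0.11 with the deposited scaling, 0.0014 with quantile normalization and -0.0070 with scaling on the brighter probe sets, an alternative added after the data were seen. The BioC spike-in controls also split the arrays, with mean log2 signals of 9.25 to 9.42 in one set (tumoricidal replicates 1 and 2 with control replicate 1, called batch A here) and 7.37 to 7.44 in the other (tumoricidal replicate 3 with control replicate 2, batch B); what these sets were is not in the labels.

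All 6 macrophage markers were well above the floor, the 25th percentile of signals (4.79) to which lower values were raised. The receptor Csf1r, for example, had 6685, 5913 and 6808 in tumoricidal and 5186 and 5290 in control arrays. All 6 also had a log2 difference above 0, with a median of 0.34, and 2 of them, Csf1r and Fcgr1, were higher without overlap. Their summed signal was 11887 to 17006 in tumoricidal and 10509 to 13859 in control arrays. Of 8 measured neutrophil markers, 4 were higher on every tumoricidal array than on both control arrays, and none was lower on all. Their summed signal was 9799 to 11168 in tumoricidal and 4428 to 7236 in control arrays. Most of that sum was S100a8 and S100a9, both among the higher ones. Camp (0.98), Csf3r (0.54), Mmp8 (0.035) and Elane (-0.35) had overlapping groups. Natural killer markers (3 of 4 higher without overlap) summed to 122 to 441 in tumoricidal and 54.2 to 65.6 in control arrays. The largest part of that sum was Prf1, with 205, 324 and 55.3 in tumoricidal and 42.8 and 30.8 in control arrays. Eomes and Klre1 were each at the floor on 1 control array. Markers of eosinophils, basophils and mast cells (3 of 7 higher without overlap) summed to 140 to 172 in tumoricidal and 16 to 54.1 in control arrays. Of plasma cell or myeloma markers 5 of 8 were lower and 2 higher without overlap, summing to 3587 to 4879 in tumoricidal and 5631 to 6287 in control arrays. The largest part of that sum was Xbp1, a higher one, with 3132, 3098 and 3297 in tumoricidal and 2456 and 2721 in control arrays. The list does not tell plasma cells from the myeloma cells of the plugs. Markers of plasmacytoid dendritic cells (2 of 5 lower, none higher) summed to 311 to 387 in tumoricidal and 529 to 573 in control arrays. Most of that sum was Tcf4, with 212, 247 and 315 in tumoricidal and 465 and 458 in control arrays. The other lower marker, Siglech, was at the floor in 2 tumoricidal arrays. Ccr9 (0.87), Spib (0.27) and Klk1 (0.043) had log2 differences above 0 with overlapping groups. B-cell markers (1 of 4 lower) summed to 44.7 to 71.6 in tumoricidal and 70.1 to 98.3 in control arrays, and Cd79a was at the floor in 2 tumoricidal arrays and 1 control array. T-cell markers (2 of 5 higher) summed to 77.8, 869 and 69.2 on tumoricidal replicates 1 to 3, beside 85.9 and 43.3 on control replicates 1 and 2. Of 4 inflammatory monocyte markers only Ccr2 was measured (0.15, groups overlapping). Conventional dendritic cell markers (1 of 5 higher, Itgae) summed to 233 to 376 in tumoricidal and 333 to 512 in control arrays. Most of that sum was Cd209a (-0.76, groups overlapping). No fibroblast or endothelial marker separated the groups. Of all tested probe sets, 13.3% were higher and 7.60% lower without overlap. Some markers counted above separate through the floor. The mast cell marker Ms4a2 was at it on both control arrays, and the plasma cell marker Tnfrsf17 on all 3 tumoricidal arrays. The part of these cell types in the results below was not tested.

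None of the 16 Toll-like receptor probe sets passed limma's adjusted p under 0.05, a threshold that 0.0512% of all 41053 tested probe sets passed (0.0341% higher and 0.0171% lower in tumoricidal). Only 1 of the 16 had an unadjusted p under 0.05 (limma), where 7.99% of all probe sets did. That was Tlr4 1430695_at, which both control arrays had under the floor. It passed the filter on low signals through the tumoricidal arrays alone, so its p is not read as a result. The number of probe sets with an unadjusted p under 0.05 was 3 of 16 with a variance trend in limma, where 5.27% of all probe sets were higher. With the batch as a block it was 6 of 16 (3 of Tlr4, 1430695_at among them, 2 of Tlr3 and 1 of Tlr2), where 6.41% were higher. None of these passed the adjusted threshold. Tlr2, Tlr3, Tlr4, Tlr6 and Tlr9 were brighter on each of the 3 tumoricidal arrays than on both control arrays, and no receptor was dimmer on all of them. Counted by probe set that is 9 of 16, where 13.3% of all probe sets separated in this direction and 20.9% in either, but 4 of the 9 read Tlr4 and 2 read Tlr3, so they are not independent. The 9 also include Tlr4 1430695_at, whose separation rests on that filter. The sizes were modest, between 1.23-fold for Tlr9 and 1.69-fold for Tlr3 on the probe set that stands for the gene. Of the 10 receptors 8 had a difference above 0, as did 58.4% of all probe sets. The 2 others were Tlr7 (log2 difference -0.28) and Tlr5 (-0.17), both with overlapping groups.

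**Figure D1:**
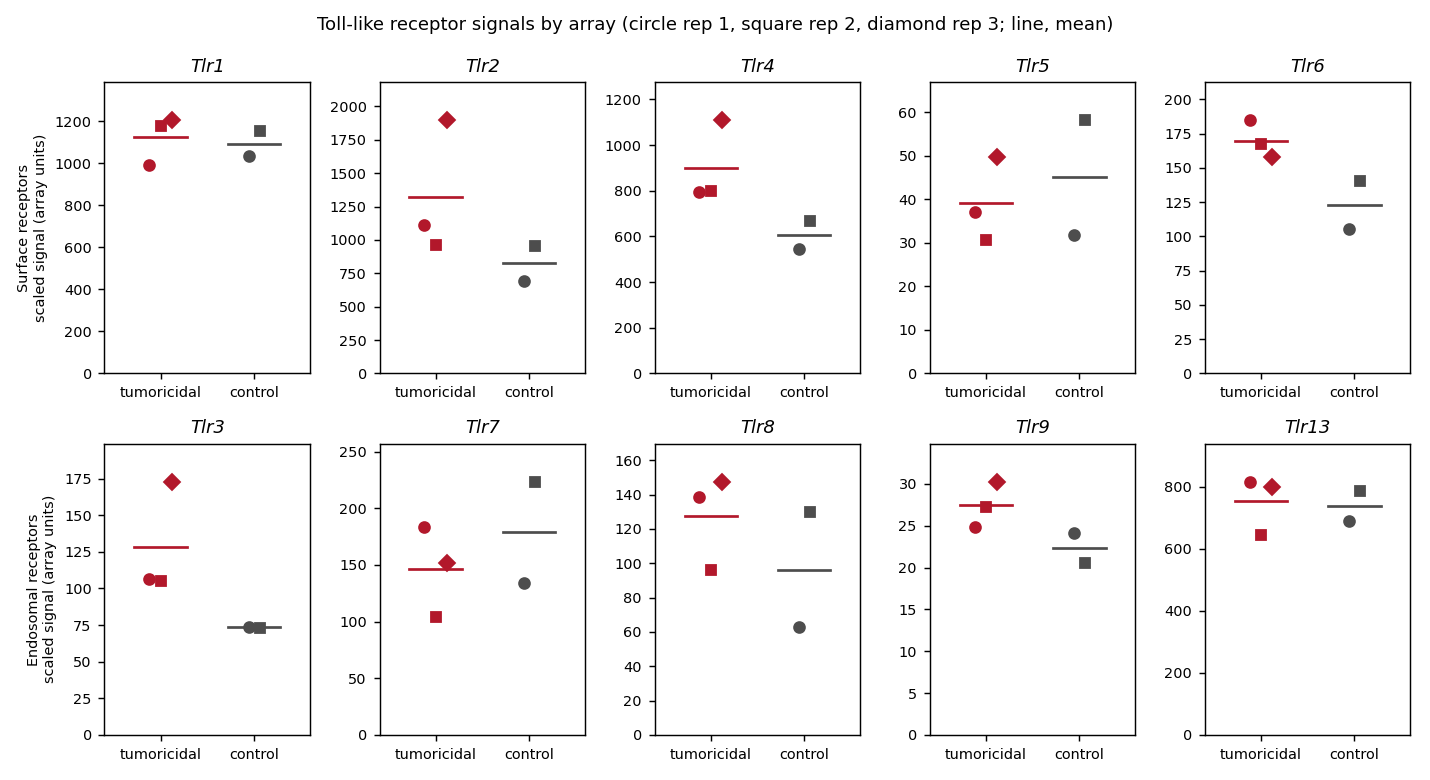
Scaled signal (array units, linear axis from 0) of the probe set that stands for each receptor, with surface receptors in the upper row and endosomal receptors in the lower row; points are arrays (circle, square and diamond for replicates 1, 2 and 3), red for tumoricidal and grey for control, and lines are group means. All 3 tumoricidal arrays lie above both control arrays for Tlr2, Tlr4, Tlr6, Tlr3 and Tlr9, and the groups overlap for the other 5 receptors.

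The promoter windows of Tlr2, Tlr3, Tlr6 and Tlr9 are shown because these receptors separated the groups; Tlr4 is named only. Windows are from RefSeq (GRCm38.p6), 250 bases before to 50 after a gene start, written 5′ to 3′ on the gene's strand, with a matched motif in capitals. The motifs searched on both strands were the interferon-stimulated response element, searched as GAAA, any 2 bases and GAAA, the gamma-activated site TTCNNNGAA, which STAT factors bind, and GAGGAAGT of the myeloid factor PU.1. Tlr6 has 2 annotated starts.
Tlr2, chr3:83841559-83841858, minus strand: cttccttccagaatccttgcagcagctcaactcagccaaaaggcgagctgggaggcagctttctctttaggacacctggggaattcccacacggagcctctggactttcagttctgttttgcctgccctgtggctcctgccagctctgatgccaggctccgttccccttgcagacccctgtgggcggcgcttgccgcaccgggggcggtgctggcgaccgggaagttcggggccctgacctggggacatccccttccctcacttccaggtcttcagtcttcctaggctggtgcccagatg
Tlr3, chr8:45410331-45410630, minus strand: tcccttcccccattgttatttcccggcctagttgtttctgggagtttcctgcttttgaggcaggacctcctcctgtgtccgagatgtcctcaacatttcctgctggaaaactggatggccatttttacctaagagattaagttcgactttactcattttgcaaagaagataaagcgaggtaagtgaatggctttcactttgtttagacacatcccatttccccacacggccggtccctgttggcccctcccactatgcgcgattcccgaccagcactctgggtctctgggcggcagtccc
Tlr6, start further downstream, chr5:64959117-64959416, minus strand: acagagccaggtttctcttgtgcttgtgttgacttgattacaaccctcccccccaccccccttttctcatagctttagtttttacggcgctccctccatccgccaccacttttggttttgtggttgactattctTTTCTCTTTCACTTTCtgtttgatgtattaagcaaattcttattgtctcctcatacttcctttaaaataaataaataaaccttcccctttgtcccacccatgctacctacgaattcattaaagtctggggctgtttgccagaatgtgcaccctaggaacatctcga
Tlr6, start further upstream, chr5:64959999-64960298, minus strand: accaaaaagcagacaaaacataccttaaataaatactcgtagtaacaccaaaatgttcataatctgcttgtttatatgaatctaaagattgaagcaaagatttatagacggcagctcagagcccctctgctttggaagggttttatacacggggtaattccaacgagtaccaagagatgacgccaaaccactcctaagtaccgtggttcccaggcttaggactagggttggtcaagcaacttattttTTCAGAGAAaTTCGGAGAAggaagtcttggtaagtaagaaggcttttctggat
Tlr9, chr9:106222348-106222647, plus strand: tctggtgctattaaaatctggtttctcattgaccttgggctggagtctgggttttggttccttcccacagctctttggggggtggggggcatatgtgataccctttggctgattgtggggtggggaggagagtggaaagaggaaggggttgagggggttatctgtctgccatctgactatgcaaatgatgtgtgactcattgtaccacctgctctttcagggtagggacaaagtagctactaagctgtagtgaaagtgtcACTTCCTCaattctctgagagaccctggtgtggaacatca

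The downstream Tlr6 window holds the interferon-stimulated response element in reverse orientation at bases -116 and -110 from the start, as 2 matches that overlap, and it was the only one of the 10 windows of 8 receptors in the table to hold it; 3.44% of 32851 promoter windows do. The gamma-activated site was in the other Tlr6 window, where its 2 matches lie at bases -3 and 8, in 1 window of Tlr1 and in that of Tlr8, that is in 3 of 10 windows, against 8.30% of all windows. GAGGAAGT was in 1 window of Tlr1 and, in reverse, in that of Tlr9, against 3.20% of all windows. The windows of Tlr2 and Tlr3 held none of the 3 motifs. Receptors with a match were therefore found both among those that separated the groups (Tlr6 and Tlr9) and among those that did not (Tlr1 and Tlr8), and such letters are not evidence of binding.

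At the surface, Tlr2 binds bacterial lipoproteins as a dimer with Tlr1 or Tlr6. Its signals were 1111, 965 and 1896 on tumoricidal replicates 1 to 3, against 695 and 956 on control replicates 1 and 2. The margin between the groups was thus narrow, 965 against 956, and tumoricidal replicate 3 stood well above the other arrays. The log2 difference was 0.64 (SE 0.38, 95% confidence interval -0.29 to 1.57, limma adjusted p = 0.788), with 0.58 in batch A alone and 0.99 in batch B alone. It was 0.35 without tumoricidal replicate 3 and was 0.41 without control replicate 1.

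Tlr6, one partner of Tlr2, gave 185, 168 and 158 on the tumoricidal arrays, against 105 and 141 on the control arrays (169.9 ± 13.7, SD, n = 3, and 123 ± 25, SD, n = 2). The groups did not overlap, and the difference of 0.48 (SE 0.25, limma adjusted p = 0.763) was 0.74 in batch A alone and 0.16 in batch B alone. It was 0.27 without control replicate 1 and 0.69 without control replicate 2. With the deposited scaling the groups overlapped and the difference was 0.25. Tlr1, the other partner and the neighbouring gene of Tlr6 on chromosome 5, gave 992, 1177 and 1204 on tumoricidal arrays, against 1036 and 1152 on control arrays. Its groups overlapped, with a difference of 0.037 (SE 0.24, 95% confidence interval -0.55 to 0.63), that is 0.681-fold to 1.55-fold under this scaling; its sign turned to -0.19 with the deposited scaling and -0.28 with quantile normalization.

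Ratios of 2 genes on the same array do not move when an array is rescaled, so 10 pairs of partners or contrasting receptors, picked after the data were seen, were also set side by side. They are descriptions, with no test, and how often ratios of other genes separate so few arrays was not counted. The log2 ratio of Tlr6 to Tlr1 was -2.43, -2.81 and -2.93 on tumoricidal arrays, against -3.30 and -3.03 on control arrays, so that Tlr6 was higher relative to Tlr1 on each tumoricidal array. The ratio of Tlr2 to Tlr6 overlapped between the groups (2.59, 2.53 and 3.59 against 2.72 and 2.76), and so did that of Tlr2 to Tlr1, by a small margin (0.16, -0.29 and 0.65 against -0.58 and -0.27). Those of Cd180 to Ly86 (-4.90, -4.58 and -5.27 against -4.67 and -5.55) and of Tlr3 to Unc93b1 (-4.13, -3.94 and -3.44 against -3.86 and -4.00) overlapped too. That of Tlr4 to Tlr7 separated the groups (2.11, 2.93 and 2.87 against 2.02 and 1.58). The remaining pairs are given with their receptors below.

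Tlr4, which senses lipopolysaccharide together with its co-receptor MD-2 (Ly96), is read by 4 probe sets. On the 3 brighter ones it was higher without overlap under this scaling. The remaining one, with both control arrays under the floor, is given apart below. On the brightest, 1418162_at, signals were 794, 797 and 1109 on tumoricidal arrays, against 544 and 669 on control arrays. The log2 difference was 0.56 (SE 0.28, 95% confidence interval -0.13 to 1.25, limma adjusted p = 0.742), with 0.55 within batch A and 0.73 within batch B. The probe sets 1418163_at (0.71) and 1442827_at (0.57) differed by similar amounts. Under the deposited scaling these 3 differences were 0.33, 0.48 and 0.34, and under quantile normalization 0.26, 0.46 and 0.38; the groups then overlapped on 1442827_at.

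The remaining Tlr4 probe set, 1430695_at, gave 27.4, 16.8 and 28.6 on tumoricidal arrays, while both control arrays were under the floor (4.06 and 4.60). Tumoricidal signal was therefore at least 4.93-fold higher with the controls set to the floor, a lower bound that is given with no test, because the probe set passed the filter on low signals through the tumoricidal arrays alone. The 3 brighter Tlr4 probe sets had 1.47-fold to 1.64-fold. Which transcripts each one reads is not given in the sources used here.

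The partners of Tlr4 had overlapping groups. Ly96 had a difference of 0.17 (adjusted p = 0.904), and Cd14, which hands lipopolysaccharide to the complex, one of -0.18 (adjusted p = 0.924); both changed sign under some alternatives. On each tumoricidal array the log2 ratio of Tlr4 to Ly96 (1.13, 1.07 and 1.18) exceeded that on the control arrays (0.95 and 0.53). The ratio of Tlr4 to Cd14 behaved likewise, with -2.28, -1.85 and -2.65 on tumoricidal arrays, against -2.87 and -3.13 on control arrays.

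Tlr5, the flagellin receptor, gave 37.0, 30.6 and 49.8 on tumoricidal arrays, against 31.9 and 58.2 on control arrays. The groups overlapped, with tumoricidal replicate 2 lowest and control replicate 2 highest, and the difference of -0.17 (SE 0.37, limma adjusted p = 0.920) was 0.076 in batch A alone and -0.23 in batch B alone. Without control replicate 2 it was 0.26, and without control replicate 1 it was -0.60.

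Among the endosomal receptors, Tlr3, which binds double-stranded RNA and is the member that uses TRIF alone, had the largest difference of the 10 on the probe sets that stand for the genes and with all arrays in the fit; without control replicate 2 that of Tlr8 was larger, 0.999 against 0.75 for Tlr3. Its signals were 107, 105 and 173 on tumoricidal arrays, against 73.9 and 73.3 on control arrays. The control arrays nearly coincided and all tumoricidal arrays lay above them. The log2 difference was 0.76 (SE 0.31, 95% confidence interval -0.013 to 1.53, unadjusted p = 0.0528, limma adjusted p = 0.642), 0.52 within batch A and 1.24 within batch B. The second Tlr3 probe set, 1422781_at, gave 61.9, 59.0 and 88.5 on tumoricidal arrays, against 41.4 and 49.6 on control arrays, a difference of 0.60. Both probe sets kept the groups apart under all 4 scalings, with differences between 0.37 and 0.76.

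Tlr7, which binds single-stranded RNA, was read by 3 probe sets and had a negative difference on each. On the brightest, 1422010_at, signals were 183, 104 and 152 on tumoricidal arrays, against 134 and 224 on control arrays. The groups overlapped, with a difference of -0.28 (SE 0.37, limma adjusted p = 0.863; 0.040 within batch A and -0.56 within batch B). The dim probe sets 1419848_x_at and 1449640_at had -0.44 and -0.58. Both of these separated the groups, lower in tumoricidal, under the deposited scaling (-0.67 and -0.81), which itself puts 15.2% of all probe sets lower without overlap, against 7.60% here; 1419848_x_at then had an unadjusted p of 0.0372. Both also did so with scaling on the brighter probe sets, and 1449640_at with quantile normalization. They are annotated to the same sequence record, so they are not independent of each other. Without control replicate 2 the Tlr7 difference on the brightest probe set was 0.085, and without control replicate 1 it was -0.65.

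Tlr8, a single-stranded RNA receptor in humans whose gene adjoins Tlr7 on chromosome X, gave 138, 96.1 and 148 on tumoricidal arrays, against 62.6 and 129.6 on control arrays. The groups overlapped, and the difference of 0.47 (SE 0.40, adjusted p = 0.830) depended on the control arrays, with 0.88 within batch A, 0.19 within batch B, -0.050 without control replicate 1 and 0.999 without control replicate 2. The log2 ratio of Tlr8 to Tlr7 was -0.41, -0.12 and -0.041 on tumoricidal arrays, against -1.10 and -0.79 on control arrays. Tlr8 was thus higher relative to Tlr7 on each tumoricidal array than on both control arrays, in a ratio picked after the data were seen. The ratio of Tlr3 to Tlr7 was -0.78, 0.012 and 0.19 on tumoricidal arrays, against -0.86 and -1.61 on control arrays, again without overlap, though by a narrow margin in tumoricidal replicate 1.

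Tlr9, the receptor for DNA with unmethylated CpG, gave 24.8, 27.2 and 30.3 on tumoricidal arrays, against 24.1 and 20.6 on control arrays. The groups were apart by less than 1 unit of signal, and the difference was 0.29 (SE 0.24, limma adjusted p = 0.824; 0.11 within batch A and 0.56 within batch B). With the deposited scaling it was 0.066 and the groups overlapped, and without control replicate 2 it was 0.18. Tlr13, which in mice detects bacterial ribosomal RNA, gave 817, 643 and 799 on tumoricidal arrays, against 689 and 787 on control arrays. The control values lie within the tumoricidal range, and the difference of 0.023 (SE 0.25) has a 95% confidence interval of 0.664-fold to 1.56-fold; it turned to -0.21 with the deposited scaling and -0.27 with quantile normalization.

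**Figure D2:**
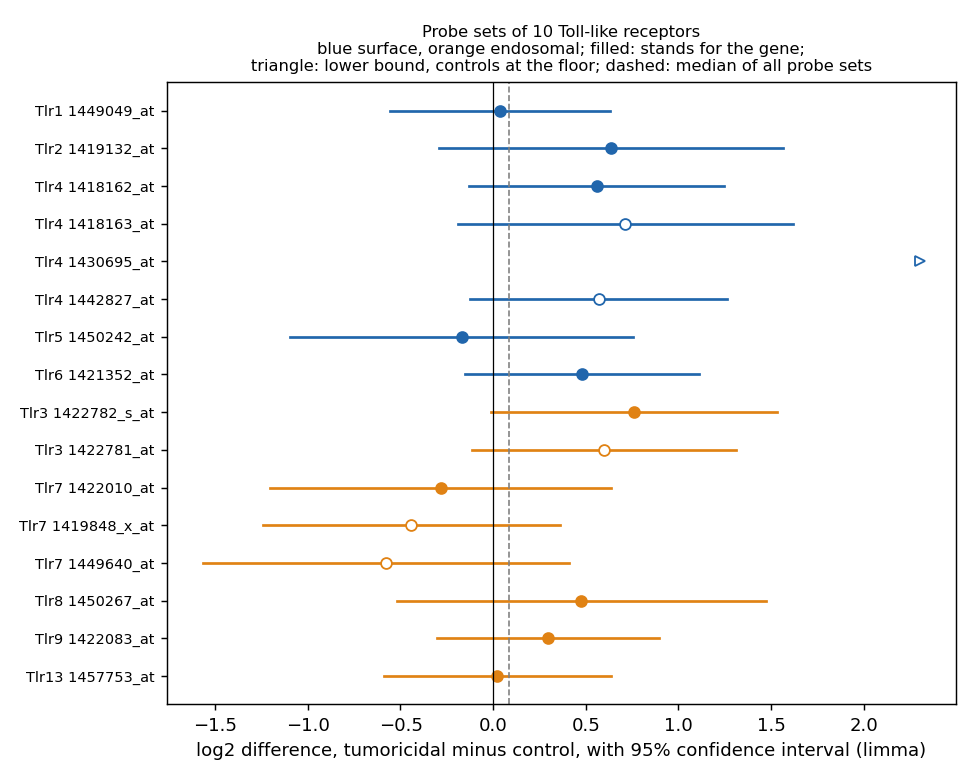
Log2 difference (tumoricidal minus control) for the 16 probe sets of the 10 receptors, with limma's 95% confidence interval; blue marks surface and orange endosomal receptors, filled symbols the probe set that stands for the gene, and the dashed line the median of all probe sets (0.086). All intervals drawn include 0; the triangle, Tlr4 1430695_at, is a lower bound of 2.30 because both control arrays were at the floor, and no interval is drawn for it.

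Differences in the surface and endosomal classes covered overlapping ranges. The median log2 difference was 0.48 over the 5 surface receptors and 0.29 over the 5 endosomal receptors, beside 0.086 over all tested probe sets, and 4 of 5 were positive in each class. Relative to the median of all probe sets, the surface median was 0.39, and 0.35, 0.26 and 0.37 with the deposited scaling, quantile normalization and scaling on the brighter probe sets. The endosomal median was 0.21 on the same footing, and 0.17, 0.26 and 0.18. On single arrays the mean log2 signal of the surface receptors exceeded that of the endosomal receptors by 1.35, 1.59 and 1.55 on tumoricidal arrays and by 1.40 and 1.49 on control arrays. The control values lie inside the tumoricidal range. Both classes held members that kept a positive sign under every alternative run (Tlr2, Tlr4 and Tlr6 at the surface, Tlr3 and Tlr9 in endosomes) and members that did not (Tlr1 and Tlr5; Tlr7, Tlr8 and Tlr13).

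**Figure D3:**
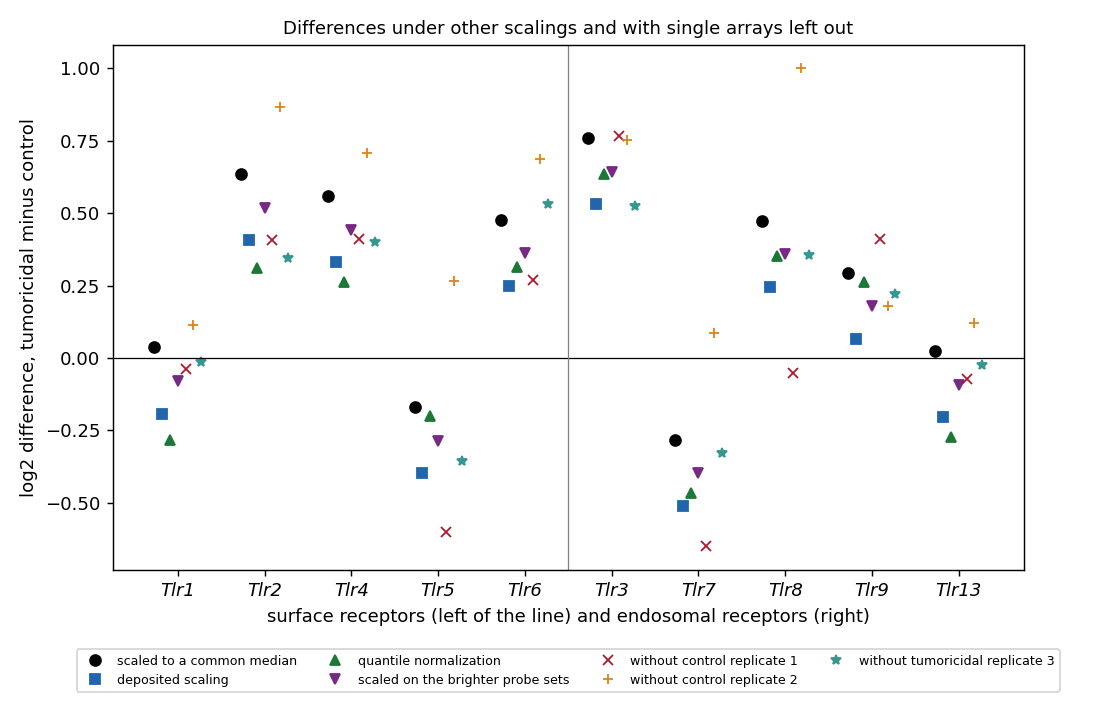
Log2 difference (tumoricidal minus control) of each receptor with the arrays scaled to a common median (black), under 3 other scalings and with single arrays left out; surface receptors are left of the grey line and endosomal receptors right of it. Tlr2, Tlr4, Tlr6, Tlr3 and Tlr9 stay above 0 throughout, Tlr1, Tlr13 and Tlr8 cross it, and Tlr5 and Tlr7 lie below it except without control replicate 2.

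Patterns like those of the receptors with the largest differences were common over so few arrays. Tlr3 ran closest to Inhba, Creb5 and Egr3 (Pearson's r of 0.996, 0.996 and 0.995 over the log2 values of 5 arrays), and Tlr2 closest to Maff, Nufip1 and Cbarp (0.999, 0.994 and 0.994). Of 3836 genes compared, 207 exceeded an r of 0.9 with Tlr3 and 386 with Tlr2, so that such likeness singles out no gene.

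The machinery around the receptors was described from 7 lists with 52 measured genes. None passed limma's adjusted p under 0.05; at an unadjusted p under 0.05, 12 of 52 were higher and 0 lower, where 4.92% of all probe sets were higher and 3.07% lower. The 12 depended on the scaling and the floor: 4 of 52 were higher with the deposited scaling (2.86% of all probe sets) and 3 with quantile normalization (4.20%). With the floor at the 10th percentile 5 were higher, where 1808 probe sets of the whole table were, against 2021 in the main fit. With the batch as a block 15 were higher (6.41%), and 0 were lower in each of these fits. In 17 of the 52 the groups separated with tumoricidal higher, beside 13.3% of all probe sets, and in 0 with tumoricidal lower, beside 7.60%. The median log2 difference was 0.27, beside 0.086 for all probe sets. The share of 4.92% also stands beside the count of each list below.

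Among proteins that deliver ligands or pair with receptors, 2 of 6 had an unadjusted p under 0.05: Cd180, a Toll-like receptor homologue, and Ly86 (MD-1), the co-receptor it needs. Cd180 gave 138, 135 and 108 on tumoricidal arrays, against 86.9 and 53.5 on control arrays, 0.89 apart on the log2 scale (SE 0.31, limma adjusted p = 0.559). Ly86 gave 4113, 3239 and 4165 on tumoricidal arrays, against 2212 and 2510 on control arrays, a difference of 0.69 (SE 0.25, limma adjusted p = 0.577). Both separated the groups, while those of Ly96 and Cd14 overlapped. With the deposited scaling the unadjusted p was 0.151 for Cd180 and 0.0818 for Ly86, and with quantile normalization 0.0954 and 0.127, so that 0 of 6 were under 0.05.

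Of 10 genes for the trafficking and cleavage of endosomal receptors, 2 had an unadjusted p under 0.05. Unc93b1, the chaperone that carries the endosomal receptors and Tlr5 out of the endoplasmic reticulum, gave 1869, 1610 and 1879 on tumoricidal arrays, against 1076 and 1171 on control arrays. Its difference was 0.67 (SE 0.23, limma adjusted p = 0.559), with 0.69 in batch A alone and 0.68 in batch B alone. Slc15a3, an endosomal carrier of histidine and bacterial peptides, had a difference of 0.87 (SE 0.32, limma adjusted p = 0.585), while its relative Slc15a4, needed for Tlr7 and Tlr9 signalling, had -0.34 (SE 0.38). With the deposited scaling the unadjusted p was 0.0943 for Unc93b1 and 0.0524 for Slc15a3, and with quantile normalization 0.194 and 0.0697, so that 0 of 10 were under 0.05. The protease Ctss (0.35) and the adaptor complex subunit Ap3b1 (0.39) did not reach an unadjusted p under 0.05.

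In the signalling core, of 4 adaptors and 11 kinases and ubiquitin ligases, 0 had an adjusted p (limma) or an unadjusted p under 0.05. Myd88, the adaptor shared by most of the receptors, had 0.21 (SE 0.28), Tirap, which bridges it to Tlr2 and Tlr4, 0.22 and Ticam1 0.049; with the deposited scaling they were -0.017, -0.0097 and -0.18. Ikbke, a kinase of interferon regulatory factors, had 0.58, Irak2 0.57, Traf6 0.43 and Map3k7 (TAK1) 0.35. Among 7 inhibitors, 2 had an unadjusted p under 0.05: Tnip1 (0.72, limma adjusted p = 0.585), a partner of the ubiquitin-editing enzyme A20, and the deubiquitinase Cyld (0.63, limma adjusted p = 0.600). Neither p was under 0.05 with the deposited scaling (0.0739 for Tnip1, 0.105 for Cyld) or quantile normalization (0.0650 and 0.0854). A20 itself (Tnfaip3) had 0.22 and the decoy kinase Irak3 0.27.

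Downstream, 2 of 6 transcription factors had an unadjusted p under 0.05. Irf8, a factor of the macrophage and dendritic lineages, gave 1264, 1066 and 1483 on tumoricidal arrays, against 572 and 672 on control arrays, a difference of 1.02 (SE 0.26, limma adjusted p = 0.387). Irf5, which MyD88 signalling activates, had 0.77 (SE 0.25, limma adjusted p = 0.515), with 721, 647 and 694 on tumoricidal arrays, against 352 and 460 on control arrays. With quantile normalization the unadjusted p was 0.0152 for Irf8 and 0.0523 for Irf5. Irf7, which drives type I interferon genes after endosomal sensing, had 0.71 with overlapping groups, and Rela, a subunit of NF-kB, 0.28.

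Cytosolic sensors, which read nucleic acids and peptidoglycan outside the membrane compartments of the Toll-like receptors, had the highest list median, 0.73. At an unadjusted p under 0.05 (limma), 4 of 8 were higher, where 4.92% of all probe sets were. That count was 2 of 8 with each of the deposited scaling (2.86% of all probe sets), quantile normalization (4.20%) and scaling on the brighter probe sets (3.92%). With the batch as a block it was 6 of 8 (6.41%). Tmem173 (STING), which relays the sensing of DNA, gave 745, 546 and 614 on tumoricidal arrays, against 181 and 236.6 on control arrays. Its difference of 1.61 (SE 0.27, limma adjusted p = 0.195) exceeded that of every Toll-like receptor on the probe set standing for the gene, and it passed with an adjusted p of 0.0375 where only probe sets above the median were tested. That fit tested fewer probe sets and still called more of them than the main fit, which called 21 of 41053. At an unadjusted p under 0.05 (limma) it had 1643 probe sets higher and 494 lower, out of that smaller set. The main fit had 2021 higher and 1259 lower out of 41053. Dhx58, a helicase of the RIG-I family, had 1.22 and Ifih1 (MDA5), which senses double-stranded RNA as Tlr3 does, 0.82; both separated the groups. With the deposited scaling and quantile normalization the unadjusted p was 0.0187 and 0.0186 for Dhx58, and 0.0993 and 0.166 for Ifih1. Nod1, a peptidoglycan sensor, had 1.20 with overlapping groups.

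**Figure D4:**
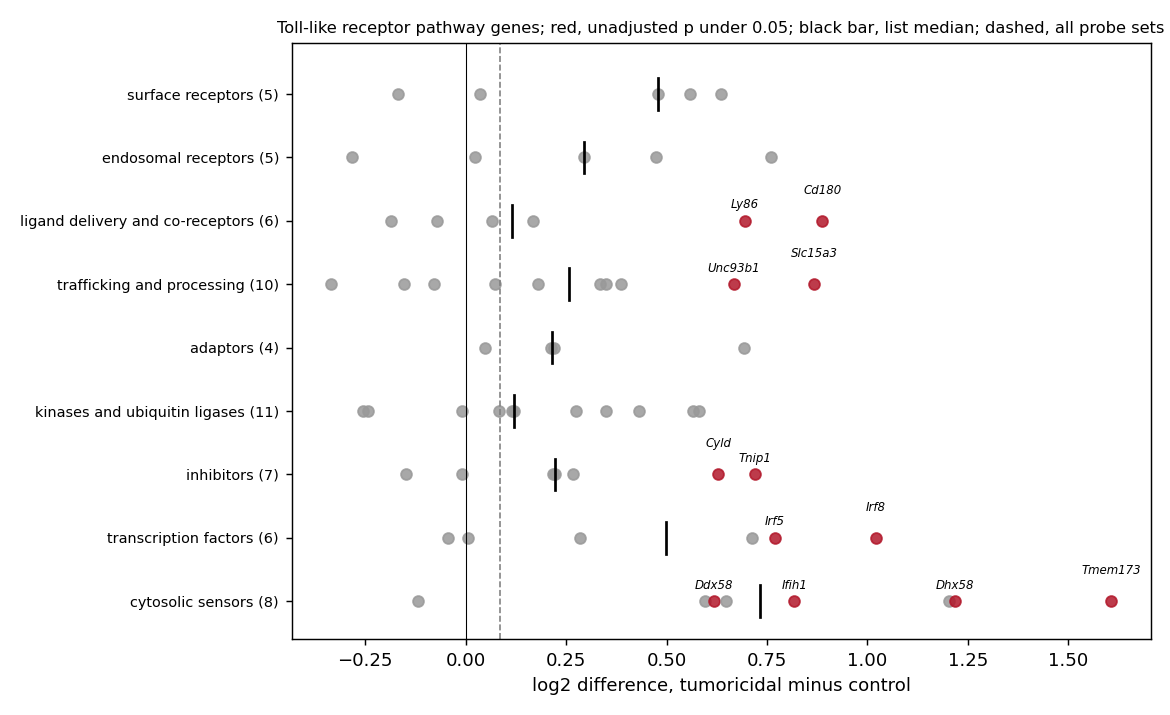
Log2 difference (tumoricidal minus control) of the receptors and of the 52 genes in 7 lists around them, 1 point per gene, with the number measured in brackets; red marks an unadjusted p under 0.05 (limma), the black bar the list's median and the dashed line the median of all probe sets. The 12 red points, 4 with the deposited scaling and 3 with quantile normalization, all lie to the right of 0, and none stands for a Toll-like receptor.

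Of mouse Toll-like receptors outside the 10, Tlr12 is on the array with 2 dim probe sets. The brighter gave 24.1, 16.3 and 18.4 on tumoricidal arrays, against 12.0 and 9.90 on control arrays, 0.82 apart on the log2 scale (SE 0.28, limma adjusted p = 0.545). The other had 32.9 and 24.1 on 2 tumoricidal arrays and was at the floor on the third and on both control arrays.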

How the data were processed

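Biotin-labelled cRNA from 6 µg of total RNA per sample was hybridised to Affymetrix arrays, per the labels' protocols. What the authors deposited is a linear intensity for each probe set on 5 arrays; their software, probe summary and scaling are not given in the labels. Each array's mean without the lowest and highest 2% was 100.0. Each array was scaled to the median of the array medians, the 64 spike-in and control probe sets were taken out, signals below the 25th percentile over all arrays (4.79) were set to it, and log2 was taken. Of the other 45037 probe sets, 3984 at that floor on all arrays were not tested. Groups were compared over the remaining 41053 with limma 3.58.1 (R 4.3.3; lmFit, eBayes without trend, two-sided, Benjamini-Hochberg, threshold 0.05), with no covariate, and the fit was tested on simulated data. Gene names are those of the platform annotation; a gene is represented by its probe set with 1 symbol and the highest mean. Listed genes without such a tested probe set, such as Hmgb1, Ticam2, Irak4, Traf3, Chuk, Tnip3, Nfkb1 and Nod2, are not analysed here. The receptors, lists, motifs and tests were chosen with earlier results of these data known. Genes named in each list are up to 4 with the largest difference among those above the median signal; Slc15a4 was added after its value was seen. Arrays have no counts. Limits on these values include the small number of arrays, the choice of scaling, the unexplained split of the BioC signals and signals near the floor. Alternatives were other scalings, another floor, a filter on dim probe sets, a variance trend, blocks for replicate number and batch, single arrays left out and the mean over a gene's probe sets. Figures were drawn with matplotlib 3.10.9.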

Additional observations from a re-analysis of the deposited data

How the results depend on the processing

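No Toll-like receptor probe set passed limma's adjusted threshold under any of the 13 alternative fits, and each list around the receptors stayed at 0 except the cytosolic sensors, where 1 gene passed with only probe sets above the median tested. Over the whole table, 21 calls became 0 with the floor at the 10th percentile, 222 with only probe sets above the median, 65 with a variance trend, 0 with the batch as a block, 0 with any single array left out, and 0 with the replicate number as a block. Whether same-numbered arrays belong together was not settled. Over all probe sets the deviations of same-numbered arrays from their group mean correlated with r = 0.023 and -0.24. These values cannot decide it, because the 2 control arrays deviate as mirror images of each other and are in different batches. With that replicate block Tlr1 had -0.015 and Tlr13 -0.023. Of the 10 receptors 8 were positive, and 5 to 10 with single arrays left out, the fewest without control replicate 1. The surface median of 0.48 was 0.25 with the deposited scaling, 0.26 with quantile normalization, and 0.27 to 0.69 with arrays left out; the endosomal median of 0.29 was 0.066 with the deposited scaling and -0.050 to 0.37 with arrays left out. Tlr1 and Tlr13 reversed with the deposited scaling (-0.19 and -0.21), quantile normalization (-0.28 and -0.27) and scaling on the brighter probe sets (-0.080 and -0.094). With arrays left out, Tlr1 ran from -0.040 to 0.12, Tlr13 from -0.073 to 0.13, Tlr5 from -0.60 to 0.26, Tlr7 from -0.65 to 0.085 and Tlr8 from -0.050 to 0.999. The cause of these shifts was not tested. At an unadjusted p under 0.05 (limma), 12 genes of the 7 lists were higher, where 4.92% of all probe sets were. That count was 3 with the replicate block (2.69%) and 15 with the batch block (6.41%). Without tumoricidal replicates 1, 2 and 3 it was 8, 11 and 9, where 1856, 2219 and 2013 probe sets of the whole table were higher. Signal over background limited Tlr4 1430695_at, which both control arrays had under the floor.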
